A study of Mus musculus with 9 samples.

Results

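A set of 10 genes, several of them better known from injured tissue or from neurons than from the ovary, stood lower in mouse ovaries after a high-fat diet: Sprr1a, Odaph, Tnfrsf12a, Arc, Brinp2, Rem2, Ptprn, Sema4f, Rnf152 and Prkg2. They are 10 of the 33450 rows of the authors' gene table, and each was found as 1 row. They were chosen by their FPKM values, which were lower in 1 or both diet groups, so their differences from control are given as a description, with no test, and support nothing. The animals were C57BL/6J mice, an inbred strain, and RNA of the whole ovary was sequenced at 15 weeks of age and after 10 weeks of feeding. Groups were 3 mice that became obese on a 60% fat diet (HFOB), 3 that stayed lean on the same diet (HFLN) and 3 fed standard chow with 16% fat (control). The labels name no introduced allele, and the response of the animal, not assignment, set whether it was HFOB or HFLN.

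All 10 genes are protein-coding, and several belong to the response that a cell makes within hours of a stimulus. Sprr1a encodes a small proline-rich precursor of the cornified envelope of skin, and in mouse sensory neurons it is induced after the axon is cut. Tnfrsf12a encodes Fn14, the receptor of the cytokine TWEAK, which is induced by growth factors and at sites of wounding. Arc is the classic immediate-early gene of active synapses. In the rodent ovary, Prkg2, a membrane-anchored cGMP-dependent kinase, is known as a gene that the surge of luteinising hormone induces in granulosa cells through the progesterone receptor.

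Promoter sequences are shown for 3 of the genes, to let a reader see what stands before the start site of the genes furthest below control on the log2 scale (Sprr1a and Odaph) and of the most abundant gene (Tnfrsf12a). Each is the 250 bases before the annotated start, 5′ to 3′ on the strand of the gene, from RefSeq on GRCm38.p6. The windows lie at chr3:92485882-92486131 (minus strand) for Sprr1a, chr5:91987223-91987472 (plus strand) for Odaph and chr17:23677450-23677699 (minus strand) for Tnfrsf12a. Capitals mark matches to the AP-1 motif TGANTCA, the core of the cAMP response element TGACG, the EGR motif GCGNGGGCG, the TATA motif TATAAA and the CArG box, each searched on both strands.
Sprr1a: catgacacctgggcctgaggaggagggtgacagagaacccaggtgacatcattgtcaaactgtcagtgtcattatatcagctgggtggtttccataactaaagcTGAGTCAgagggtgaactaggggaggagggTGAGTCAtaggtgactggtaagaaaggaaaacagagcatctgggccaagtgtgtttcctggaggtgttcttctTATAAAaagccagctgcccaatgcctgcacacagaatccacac
Odaph: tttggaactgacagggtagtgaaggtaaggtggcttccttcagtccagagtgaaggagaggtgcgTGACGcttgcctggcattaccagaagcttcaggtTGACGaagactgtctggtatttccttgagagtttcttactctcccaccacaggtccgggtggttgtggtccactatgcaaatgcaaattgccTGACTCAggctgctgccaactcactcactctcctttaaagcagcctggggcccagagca
Tnfrsf12a: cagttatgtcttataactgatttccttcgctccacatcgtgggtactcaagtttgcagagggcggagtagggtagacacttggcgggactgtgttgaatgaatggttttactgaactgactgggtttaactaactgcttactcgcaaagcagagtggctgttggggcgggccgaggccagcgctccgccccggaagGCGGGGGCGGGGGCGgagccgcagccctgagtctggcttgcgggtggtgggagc

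Sprr1a held the AP-1 letters at 2 places, from -146 to -140 and from -116 to -110 relative to the start, and the TATA motif from -43 to -38. Odaph, whose row in the table begins at 91987429 and so inside this window, held them once, from -59 to -53, and the TGACG core at 2 places, from -185 and from -151. Tnfrsf12a held the EGR letters at 2 overlapping places, from -54 to -46 and from -48 to -40, which also overlap the GC box GGGCGG. A window was at hand for 7 of the 10 genes, with 2 start sites for Ptprn. AP-1 letters were found in 2 of those 7 genes, against 6.75% of all 32851 windows. The TGACG core was found in 2 of the 7 (Odaph and Ptprn), against 17.8% of windows, the EGR letters in 1, against 4.70%, TATAAA in 1, against 12.4%, and the GC box in 3, against 32.7%. No CArG box and no full TGACGTCA was found in the 7 genes, against 1.47% and 1.55% of all windows. These are matches of letters in these windows and nothing more.

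Expression is given as FPKM, by its name the fragments of a gene scaled to its transcript length and to the mapped fragments of the library. The values are those the authors computed, and no source used here says how their libraries were scaled to each other. The table holds 1 FPKM per group, made from its 3 animals together, with a lower and an upper bound that are given in parentheses below. Neither a label nor the header says what confidence level these bounds have. The values per animal, their spread and the read depth are unknown, so no SD and no p-value is given, and it is unknown how many animals of a group carry a difference. Differences are on the log2(FPKM + 1) scale, which understates those of low genes, and plain ratios of FPKM are called fold. A gene is said to pass when it differs by a fold of at least 2 on that scale and the bounds of the groups do not overlap. In whole ovaries, fewer cells of a type and less RNA per cell cannot be told apart.

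The genes spanned a wide range of levels. In control ovaries they ran between 1.39 FPKM for Sema4f and 146 FPKM for Tnfrsf12a, with a median of 6.54 FPKM. Their median was 0.625 FPKM in HFOB and 0.858 FPKM in HFLN. Only 3 of the 10 reached 1 FPKM in HFOB (Tnfrsf12a, Brinp2 and Rnf152), 5 did in HFLN and all 10 did in control. Thus 5 of them entered the set of rows of at least 1 FPKM through control alone, and had to differ to be there. Percentiles were taken among 13657 protein-coding rows of at least 1 FPKM in 1 or more groups. Tnfrsf12a stood at percentile 84.1 in HFOB, 87.4 in HFLN and 96.0 in control. Sprr1a stood at percentile 0.0366 in HFOB, 0.410 in HFLN and 83.4 in control.

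**Figure D1:**
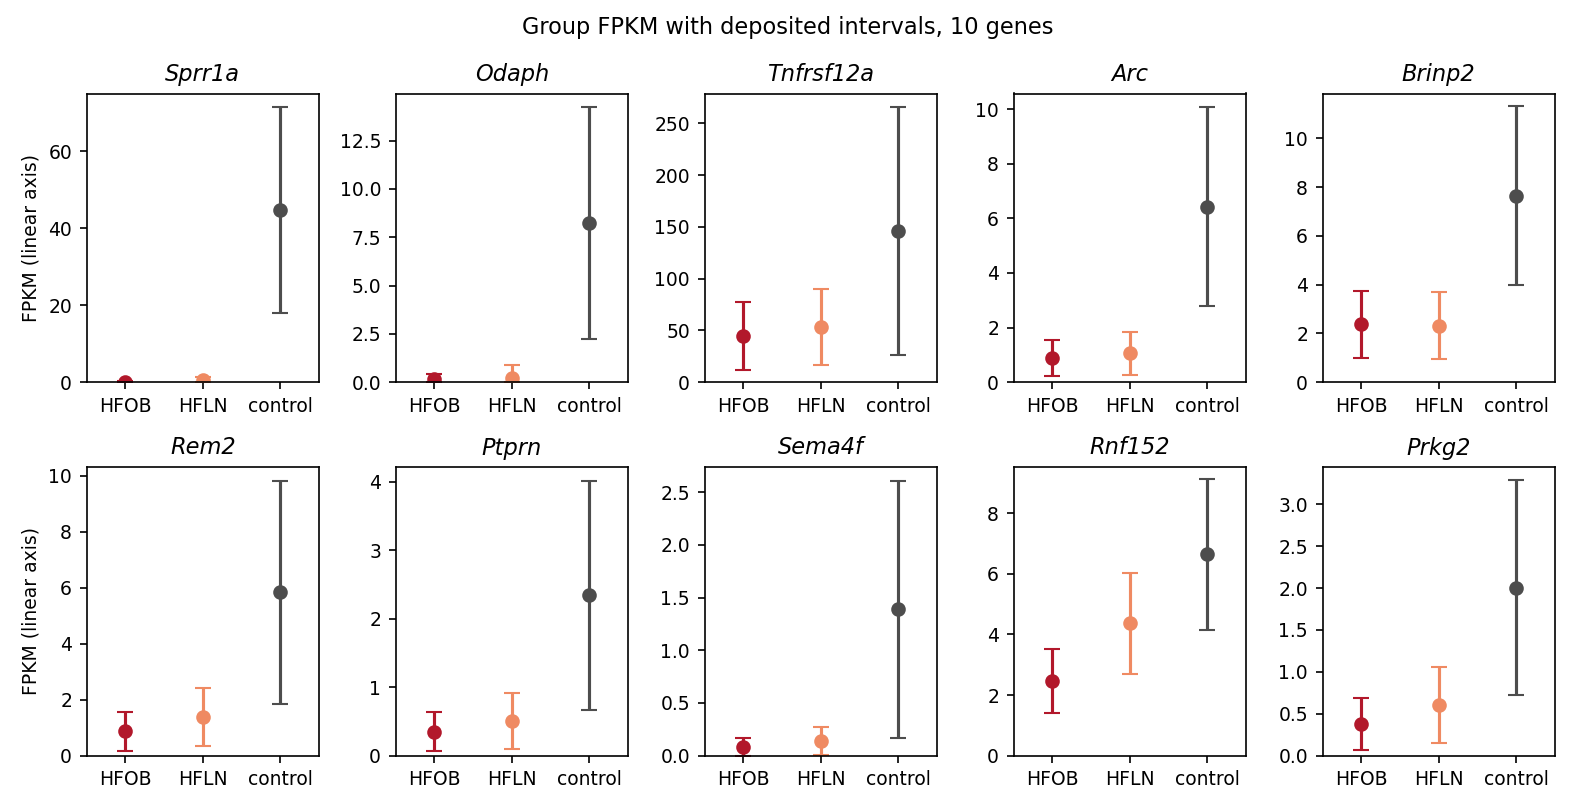
FPKM of the 10 genes in the HFOB, HFLN and control groups, on a linear axis that starts at 0 in each panel. Points are the authors' group values, each from 3 animals together, and bars run between the deposited bounds; all 10 genes are highest in control, and the bars of HFOB and HFLN overlap in each panel.

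In HFOB against control, 9 of the 10 genes passed in the lower direction, beside 0.272% of the 16929 rows scored. In HFLN against control, 4 of the 10 passed, beside 0.219% of 16932 rows lower by the same rule. Both comparisons chose the genes and share the control values, so nothing is read from these shares. Sprr1a, Odaph, Arc and Brinp2 passed in HFLN. The same 4, and Rem2, Ptprn, Sema4f, Rnf152 and Prkg2, passed in HFOB. By the fold on the log2(FPKM + 1) scale alone, 10 of the 10 passed in HFOB and 8 in HFLN. Of all rows scored, 0.874% in HFOB and 1.16% in HFLN were lower by that fold. Prkg2 did not reach it in HFLN, although it was 3.32-fold lower there as a plain ratio. Median log2 differences of the 10 were -1.52 in HFOB and -1.41 in HFLN against control, beside -0.01 and 0.000366 over all rows scored.

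The first 2 genes encode structural or secreted proteins. Sprr1a (chromosome 3, 92483954 to 92485881) had 0.0977 FPKM (0 to 0.304) in HFOB and 0.664 (0 to 1.42) in HFLN, against 44.8 (18.0 to 71.5) in control. It was 458-fold lower in HFOB and 67.4-fold lower in HFLN. These ratios rest on values whose lower bound is 0, and the nearest ends of the intervals were 59.4-fold apart in HFOB and 12.7-fold apart in HFLN. Its interval lay wholly above 10 FPKM in control and wholly below 2 FPKM in both diet groups.

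Odaph (chromosome 5, 91987473 to 91995317) encodes a secreted phosphoprotein of enamel formation, whose loss in humans causes defective enamel. Its values were 0.146 FPKM (0 to 0.412) in HFOB and 0.240 (0 to 0.911) in HFLN, against 8.24 (2.24 to 14.2) in control. That is 56.4-fold lower in HFOB and 34.3-fold lower in HFLN, at log2 differences of -3.01 in HFOB and -2.90 in HFLN. The nearest ends of the intervals were 5.43-fold apart in HFOB and 2.46-fold apart in HFLN.

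Tnfrsf12a was the single cell-surface cytokine receptor of the group and the most abundant gene. It stood at 44.7 FPKM (12.2 to 77.3) in HFOB and 53.2 (16.4 to 90.0) in HFLN, against 146 (26.7 to 266) in control. Its fold was 3.27 in HFOB and 2.75 in HFLN, both past 2, yet the intervals overlapped and the gene passed in neither comparison. The row of this gene spans 16944 bases on chromosome 17 (23660506 to 23677449), while the annotated gene spans 2005 (23675445 to 23677449). Thoc6 lies in that span on the same strand and Bicdl2 and Hcfc1r1 on the other, so the value may include reads of neighbours.

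Arc (chromosome 15, 74669081 to 74672570), whose protein acts in the uptake of glutamate receptors at synapses, had 0.894 FPKM (0.234 to 1.55) in HFOB and 1.05 (0.275 to 1.83) in HFLN, against 6.43 (2.78 to 10.1) in control. It was 7.19-fold lower in HFOB and 6.11-fold lower in HFLN. Brinp2 (chromosome 1, 158245265 to 158356528), a gene of neurons induced by bone morphogenetic protein and retinoic acid, had 2.38 FPKM (1.00 to 3.76) in HFOB and 2.32 (0.932 to 3.71) in HFLN, against 7.65 (3.97 to 11.3) in control. Brinp2 was 3.21-fold lower in HFOB and 3.29-fold lower in HFLN, the 1 gene of the 10 that was not lowest in HFOB.

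Rem2 (chromosome 14, 54476100 to 54480434) encodes a small GTPase of the RGK family, which holds back voltage-gated calcium channels. It had 0.873 FPKM (0.178 to 1.57) in HFOB and 1.38 (0.361 to 2.40) in HFLN, against 5.85 (1.86 to 9.84) in control, 6.70-fold lower in HFOB and 4.23-fold lower in HFLN. Ptprn (chromosome 1, 75247035 to 75264497) encodes IA-2, a phosphatase-like protein without enzyme activity in the membrane of dense-core granules and a target of autoantibodies in diabetes. Its 0.348 FPKM (0.0629 to 0.632) in HFOB and 0.509 (0.0995 to 0.918) in HFLN stood against 2.34 (0.665 to 4.01) in control, 6.73-fold lower in HFOB and 4.60-fold lower in HFLN. An antisense gene, Gm28294, lies within Ptprn, and since no source used here gives the strand setting of the count, reads of the pair cannot be told apart.

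Sema4f (chromosome 6, 82911884 to 82939769), a membrane-bound semaphorin that makes growth cones collapse, was the lowest of the 10 in control. It stood at 0.0779 FPKM (0 to 0.165) in HFOB and 0.141 (0.00847 to 0.274) in HFLN, against 1.39 (0.167 to 2.61) in control. Its fold was 17.8 in HFOB and 9.83 in HFLN, while the log2(FPKM + 1) differences were -1.15 in HFOB and -1.06 in HFLN.

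Rnf152 and Prkg2 encode signalling enzymes. Rnf152 (chromosome 1, 105276917 to 105356991), a ubiquitin ligase of the lysosome that acts on RagA and restrains mTORC1, stood at 2.46 FPKM (1.42 to 3.51) in HFOB and 4.37 (2.70 to 6.04) in HFLN, against 6.64 (4.15 to 9.14) in control. It was 2.70-fold lower in HFOB and 1.52-fold lower in HFLN, the lowest folds of the 10 in each comparison. An antisense gene, Gm17634, overlaps the start of Rnf152. Prkg2 (chromosome 5, 98929773 to 99037375) had 0.376 FPKM (0.0689 to 0.683) in HFOB and 0.604 (0.152 to 1.06) in HFLN, against 2.00 (0.725 to 3.28) in control, which is 5.33-fold lower in HFOB and 3.32-fold lower in HFLN.

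Several genes lay close to the edge of the rule. Just inside it in HFOB were Sema4f, whose control interval began 0.00198 FPKM above the end of the HFOB interval, Ptprn with a gap of 0.0325 FPKM and Prkg2 with 0.0422 FPKM. As a ratio, the nearest ends were 1.05-fold apart for Ptprn and 1.06-fold for Prkg2. Brinp2 was about as close by this measure, at 1.06-fold in HFOB and 1.07-fold in HFLN. By the gap in FPKM, Sema4f and Ptprn lay just outside the rule in HFLN, where their intervals overlapped control by less than 0.3 FPKM. Those gaps were -0.107 FPKM for Sema4f and -0.253 FPKM for Ptprn. As a ratio of the control lower bound to the HFLN upper bound, Rem2 was the closest, at 0.775. Ptprn stood at 0.725 and Sema4f at 0.608 by this ratio. Sprr1a had the widest gap, at 17.7 FPKM in HFOB and 16.6 FPKM in HFLN. When groups were rescaled to the same summed FPKM of protein-coding genes, 5 of the 10 passed in HFOB (Sprr1a, Odaph, Arc, Rem2 and Rnf152) and 3 in HFLN (Sprr1a, Odaph and Arc).

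**Figure D2:**
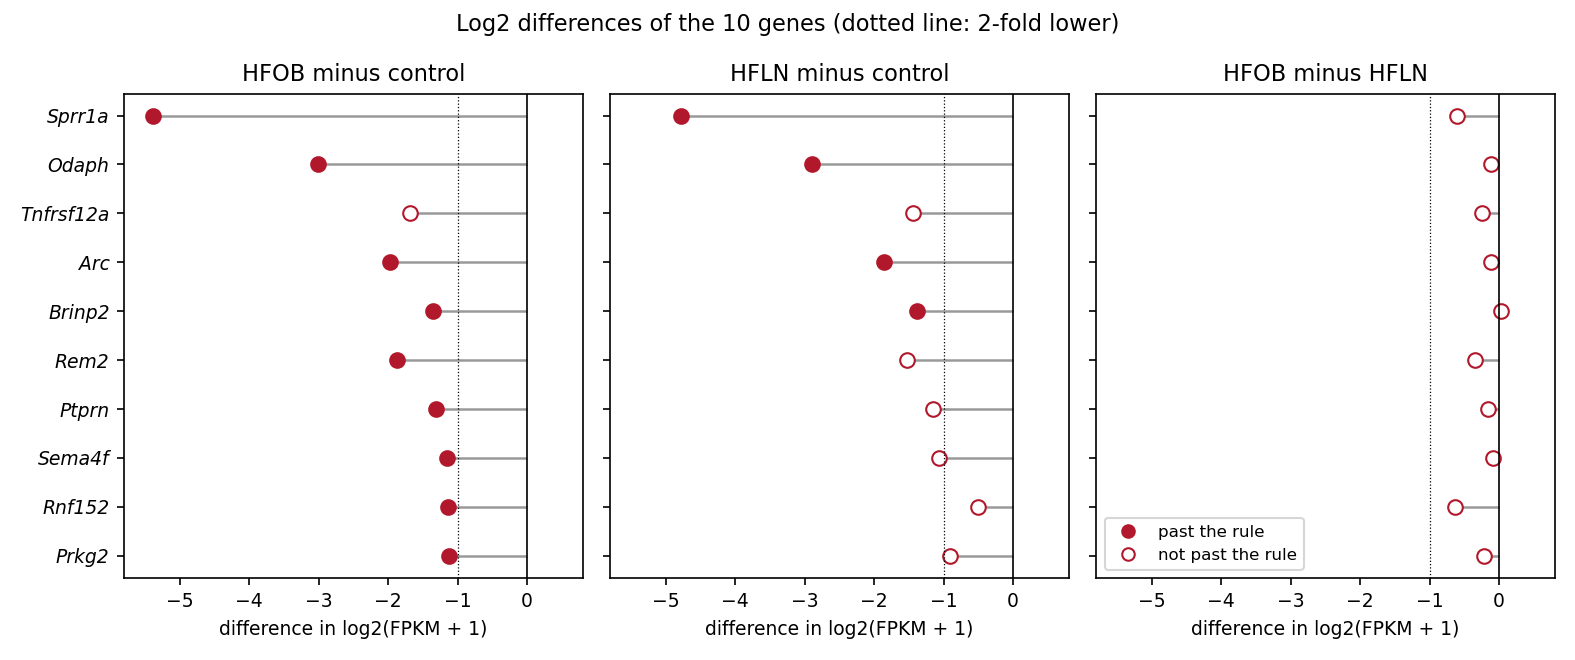
Difference in log2(FPKM + 1) of each of the 10 genes for HFOB minus control, HFLN minus control and HFOB minus HFLN. Filled points pass the rule (fold of at least 2, bounds apart) and open points do not; 9 genes pass in HFOB against control, 4 in HFLN against control and 0 in HFOB against HFLN.

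HFOB was also set against HFLN. The genes were chosen in part on their low values in HFOB, and more of them passed there than in HFLN, so this contrast is not independent of the choice and is given as a description, with nothing read from its direction. In HFOB against HFLN 0 of the 10 genes passed, beside 0.195% of 16931 rows in either direction, and all 10 pairs of intervals overlapped. Of the 10, 9 had the lower value in HFOB, beside 52.2% of all rows, and the median log2 difference was -0.19, beside -0.00709 over all rows. Brinp2 was the exception, at 0.03, and its sign turned to -0.06 when groups were scaled to summed FPKM of protein-coding genes. Sprr1a was 6.80-fold lower in HFOB than in HFLN, with both values under 1 FPKM and both lower bounds at 0. On the log2(FPKM + 1) scale Rnf152 had a difference of -0.63 and Sprr1a of -0.60. With a pseudocount of 0.1 FPKM these were -0.80 for Rnf152 and -1.95 for Sprr1a, and the median of the 10 was -0.46, so the order of the genes depends on the pseudocount. Rnf152 was 1.77-fold lower in HFOB than in HFLN, and its intervals overlapped (1.42 to 3.51 in HFOB, 2.70 to 6.04 in HFLN). Over the other 7, the values in HFOB were 1.18-fold to 1.81-fold lower. With 1 value per group no test of these differences can be made.

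The deposited intervals of most of the 10 genes were wider in control than the median interval at their level. Interval width is given here as the distance between the FPKM and its upper bound, in percent of the FPKM, and was compared with the median over protein-coding rows in the same range of FPKM. In HFOB 3 of the 10 genes lay above that median and in HFLN 3, against 8 in control. Tnfrsf12a lay above it in each group, at 72.7% in HFOB, 69.1% in HFLN and 81.8% in control, beside medians over rows of its range of 39.4% in HFOB, 36.4% in HFLN and 37.7% in control. Odaph had 280% in HFLN, beside 106% over rows of its range, and Sprr1a 211% in HFOB, beside 138%. Sprr1a had 59.7% in control, beside a median of 39.7% over the 5638 rows of 10 to 50 FPKM. Odaph had 72.8% and Rem2 68.2% in control, beside 48.1% over rows of 5 to 10 FPKM. Brinp2 (48.1%) and Rnf152 (37.5%) were at or below that median.

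**Figure D3:**
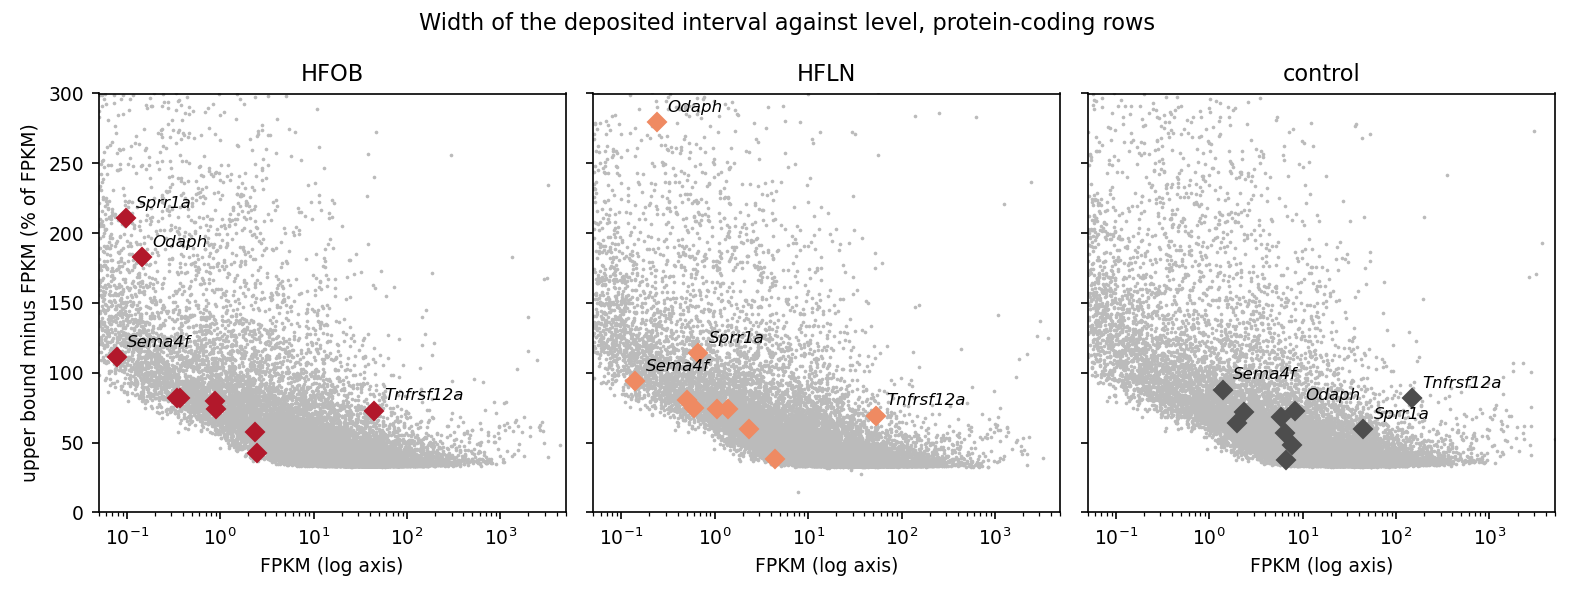
Distance between FPKM and its upper bound, in percent of FPKM, against FPKM on a log axis, for HFOB, HFLN and control. Grey points are protein-coding rows of at least 0.05 FPKM (rows above the top of the axis are not drawn) and diamonds are the 10 genes; Tnfrsf12a stands above most rows of its level in each group, at 72.7% in HFOB, 69.1% in HFLN and 81.8% in control.

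Relatives of each gene in its family or pathway were then read from lists, counting only those of at least 1 FPKM in 1 or more groups. In either direction 0.366% of all rows passed in HFOB against control and 0.283% in HFLN against control. In the family of Sprr1a, most small proline-rich and cornified envelope genes were at or near 0: besides Sprr1a, 2 of 13 listed genes were measured. Sprr2f stood at 0.780 FPKM (0 to 1.82) in HFOB and 1.11 (0 to 2.34) in HFLN, against 0.681 (0 to 1.46) in control. Lor, which encodes loricrin of the cornified envelope, stood at 1.11 in HFOB and 0.762 in HFLN, against 1.25 in control. The close relative Sprr1b was listed at 0 in all 3 groups.

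Other genes of nerve injury and regeneration were mostly lower on diet, and none passed. Of 15 measured, 14 were lower in HFOB, with a median log2 difference of -0.31, beside -0.01 over all rows scored. In HFLN 13 were lower, with a median of -0.14, beside 0.000366 over all rows. There, scaling to summed FPKM of protein-coding genes left 7 lower and 8 higher. The list was chosen with earlier results of these data known, so nothing is read from these counts. Socs3, a feedback inhibitor of cytokine signalling, had 13.6 FPKM (6.04 to 21.1) in HFOB and 31.4 (6.74 to 56.1) in HFLN, against 39.4 (20.8 to 58.0) in control. Atf3, a stress-induced transcription factor of injured neurons, had 5.82 (2.65 to 9.00) in HFOB and 6.91 (3.23 to 10.6) in HFLN, against 13.7 (6.82 to 20.5) in control.

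Genes that activity induces in neurons, the list of Arc, had 9 of 11 measured genes lower in each diet group. Medians were -0.57 in HFOB and -0.64 in HFLN, beside -0.01 and 0.000366 over all rows scored. This list too was chosen with earlier results known. Fosb, a subunit of AP-1, passed in both, at 0.826 FPKM (0.209 to 1.44) in HFOB and 1.08 (0.268 to 1.89) in HFLN, against 5.75 (2.38 to 9.12) in control. Nr4a1, an orphan nuclear receptor, passed in HFOB, with 15.3 FPKM (9.23 to 21.5) in HFOB and 19.5 (11.9 to 27.0) in HFLN, against 42.8 (24.0 to 61.5) in control. Scaling to summed FPKM of protein-coding genes left 9 of 11 lower in HFOB and 8 of 11 in HFLN.

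The other genes of the TWEAK and Fn14 list lay near 0 on the log2 scale. Of 10 measured rows 6 were lower in HFOB, at a median of -0.00521, and 5 in HFLN, at a median of 0.00134, and none passed. The ligand TWEAK is encoded by Tnfsf12, whose row also holds Tnfsf13. That row had 38.4 FPKM in HFOB and 35.0 in HFLN, against 34.7 in control, with intervals that reach 0. The row of Birc2 and Birc3, inhibitors of apoptosis, had 35.7 FPKM in HFOB and 39.0 in HFLN, against 33.0 in control, and Relb, an NF-kappaB subunit, had 15.2 in HFOB and 14.6 in HFLN, against 17.3 in control.

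Enamel and tooth matrix genes other than Odaph were mostly under 1 FPKM. Enam, Ambn and Mmp20 were listed at 0 in every group, and 2 of 11 were measured. Dmp1, a phosphoprotein of dentin and bone, had 0.460 FPKM (0.0631 to 0.857) in HFOB and 0.962 (0.232 to 1.69) in HFLN, against 1.81 (0.553 to 3.07) in control. Spp1, osteopontin, had 19.9 in HFOB and 17.4 in HFLN, against 28.8 in control. Neither passed.

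Near relatives of Brinp2 and Rem2 had log2 differences of less than 0.5 from control. Brinp1 and Brinp3 stayed under 0.2 FPKM throughout, so Brinp2 was the 1 BRINP gene measured. Among RGK GTPases, Rem1 had 5.68 FPKM in HFOB and 5.04 in HFLN, against 5.20 in control. Gem had 34.2 FPKM in HFOB and 29.99 in HFLN, against 32.3 in control, and Rrad 9.93 in HFOB and 9.61 in HFLN, against 13.7 in control. The calcium channel gene Cacna1a had 7.45 in HFOB and 6.33 in HFLN, against 9.09 in control. Of this list's 14 measured genes 6 were lower in HFOB and 7 in HFLN, with none past the rule.

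Dense-core granule and prohormone genes other than Ptprn were higher in 7 of 8 measured cases in each diet group, and none passed. Medians were 0.15 in HFOB and 0.09 in HFLN, beside -0.01 and 0.000366 over all rows scored. This list too was chosen with earlier results known, so nothing is read from these counts. Another 9 listed genes were under 1 FPKM and not counted. Of those, Chgb, Scg2, Pcsk2, Vgf and Snap25 were lower in each diet group. Ptprn2 and Pcsk1 were higher in each, and Pcsk1n and Cadps were higher in HFOB alone. Ptprn2, the closest relative of Ptprn, had 0.542 FPKM (0 to 1.16) in HFOB and 0.534 (0 to 1.15) in HFLN, against 0.332 (0 to 0.859) in control. Rab27a, a GTPase of secretory vesicles, had 18.6 in HFOB and 25.5 in HFLN, against 15.3 in control, and the granule protein Scg3 had 1.71 in HFOB and 1.45 in HFLN, against 1.25 in control. Carboxypeptidase E, encoded by Cpe, the most abundant gene of this list, stood at 732 FPKM in HFOB and 693 in HFLN, against 681 in control.

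Semaphorins, plexins and neuropilins gave 28 measured genes beside Sema4f, of which 12 were lower in HFOB and 11 in HFLN, with none past the rule. Sema3d had 8.96 FPKM (5.64 to 12.3) in HFOB and 13.8 (9.16 to 18.4) in HFLN, against 15.3 (10.1 to 20.6) in control. Sema7a, a membrane-anchored semaphorin, had 52.4 in HFOB and 60.6 in HFLN, against 80.0 in control. Medians of the list were 0.02 in HFOB and 0.04 in HFLN.

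Regulators of mTORC1 at the lysosome, the list of Rnf152, had 12 of 23 other measured genes lower in HFOB, at a median of -0.000754, and 15 in HFLN, at a median of -0.04. Rraga, which encodes the substrate RagA, had 43.8 FPKM in HFOB and 45.2 in HFLN, against 48.3 in control. Rragd, another Rag GTPase, had 5.27 in HFOB and 6.53 in HFLN, against 7.44 in control, and Sesn1, a sestrin that restrains the pathway, had 35.4 in HFOB and 32.96 in HFLN, against 28.95 in control. In the cGMP list of Prkg2, 8 of 17 other measured genes were lower in HFOB and 10 in HFLN, at medians of 0.00954 in HFOB and -0.01 in HFLN. Nos2, the inducible nitric oxide synthase, had 19.3 FPKM in HFOB and 15.6 in HFLN, against 14.4 in control, and the clearance receptor Npr3 had 2.87 in HFOB and 2.13 in HFLN, against 1.96 in control. Npr2 and its ligand gene Nppc, which hold the oocyte in meiotic arrest through cGMP, had 51.97 and 12.1 FPKM in HFOB and 53.5 and 12.1 in HFLN, against 56.0 and 13.1 in control. Apart from Rnf152 and Prkg2, no gene of these lists passed. With scaling to summed FPKM of protein-coding genes, the counts of lower genes in HFLN were 1 of 10 for TWEAK and Fn14, 2 of 14 for RGK and calcium channels, 2 of 28 for semaphorins, 2 of 23 for mTORC1 and 2 of 17 for cGMP, so no direction is read from these 5 lists.

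**Figure D4:**
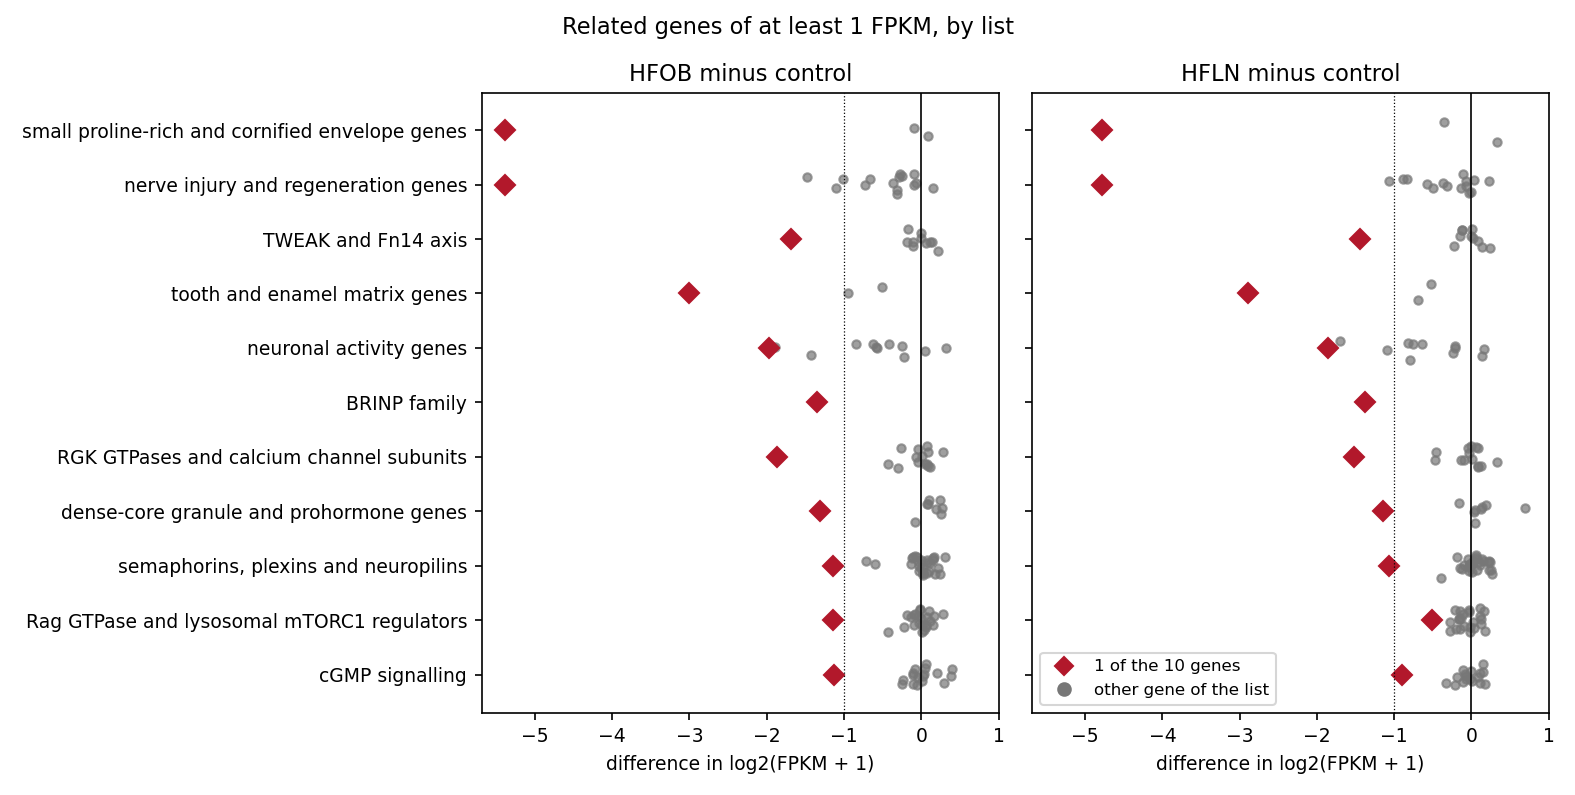
Difference in log2(FPKM + 1) of genes of at least 1 FPKM in each list, for HFOB minus control and HFLN minus control, with the 10 genes as red diamonds and their relatives as grey points. Most relatives lie near 0, with medians such as 0.02 for semaphorins in HFOB. The nerve injury and neuronal activity lists, and the 2 relatives in the tooth and enamel list, spread to the lower side in these values as deposited.

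Cell-type markers were read beside these values. Neuronal markers summed to 33.0 FPKM in HFOB and 29.95 in HFLN, against 37.1 in control, most of it Tubb3 (22.5 in HFOB, 20.9 in HFLN and 27.4 in control), and Slc17a6, Nefl and Nefm stayed under 0.1 FPKM in each group. Of the 6 of 12 neuronal markers measured, 2 were lower in HFOB and 4 in HFLN. Th, of catecholamine synthesis, had 1.59 FPKM in HFOB and 0.874 in HFLN, against 1.13 in control. Glial markers summed to 24.8 FPKM in HFOB and 25.7 in HFLN, against 28.3 in control, with Mbp at 11.6 in HFOB and 12.7 in HFLN, against 16.5 in control. Mbp was the 1 of 4 measured glial markers that was lower, and 3 were higher in each diet group, at medians of 0.11 in HFOB and 0.06 in HFLN. Markers of stratified squamous epithelium, the usual site of Sprr1a, summed to 11.4 FPKM in HFOB and 10.4 in HFLN, against 10.8 in control. Their basal keratins Krt5 and Krt14 stayed under 0.2 FPKM in each group. Of the 3 measured markers of this list, 1 (Lor) was lower and 2 were higher in each diet group, and none passed. Trp63 was among the higher ones, with 2.12 in HFOB and 1.83 in HFLN, against 1.64 in control. The highest value of the list was 6.96 FPKM in HFOB and 6.75 in HFLN, against 6.52 in control. The part of these cells in the results was not tested.

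The tissue carried its defining markers in every group, with Inha at 1465 FPKM in HFOB and 1360.4 in HFLN, against 1712 in control. Sums over granulosa and oocyte markers were 1945 FPKM in HFOB and 1815 in HFLN, against 2188 in control, and over theca and luteal markers 3664 in HFOB and 3689 in HFLN, against 4333 in control. Of the 8 granulosa and oocyte markers 3 were lower and 5 higher in HFOB, and 7 were lower in HFLN, where scaling to summed FPKM of protein-coding genes left 3 lower and 5 higher. Inha made up most of the granulosa and oocyte sum. The highest theca and luteal marker stood at 3120 FPKM in HFOB and 3054 in HFLN, against 3608 in control, which was most of that sum. Of the 6 theca and luteal markers 5 were lower in HFOB and 3 in HFLN, with Star at 169 FPKM in HFOB and 230.5 in HFLN, against 147 in control. Cyp19a1 had 12.2 FPKM in HFOB and 14.5 in HFLN, against 20.7 in control, Cyp17a1 191 in HFOB and 183 in HFLN, against 346 in control, and the row of Insl3 and Jak3 49.7 in HFOB and 38.5 in HFLN, against 61.2 in control. Markers of oviduct epithelium summed to 387 FPKM in HFOB and 627 in HFLN, against 483 in control, with Sec14l3 at 4.35 in HFOB and 12.6 in HFLN, against 5.06 in control, and Ccdc153 at 21.5 in HFOB and 55.6 in HFLN, against 29.4 in control. All 7 of them were lower in HFOB and higher in HFLN than in control, and none passed. The highest value of the 7 was 307 FPKM in HFOB and 432 in HFLN, against 369 in control, which was most of the oviduct sum. Adipocyte markers summed to 265 FPKM in HFOB and 215 in HFLN, against 234 in control. Lep, the 1 marker past the rule, had 2.10 FPKM in HFOB and 0.332 in HFLN, against 0.223 in control, and Fabp4 had 139 in HFOB and 87.2 in HFLN, against 77.2 in control. These were the 2 of 7 adipocyte markers that were higher in HFLN, where 5 were lower at a median of -0.26, while 3 were lower and 4 higher in HFOB. Cfd, adipsin, had 62.2 in HFOB and 86.4 in HFLN, against 103 in control. Immune markers summed to 114 FPKM in HFOB and 112 in HFLN, against 113 in control. The highest value of this list was 92.4 FPKM in HFOB and 91.0 in HFLN, against 92.7 in control. Of the 4 measured, 1 was lower and 3 were higher in HFOB, while 2 were lower and 2 higher in HFLN, and none passed. Ptprc had 3.17 FPKM in HFOB and 3.72 in HFLN, against 2.61 in control, and Adgre1 5.04 in HFOB and 4.77 in HFLN, against 4.15 in control.

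The protein-coding genes whose pair of differences from control lay near the medians of the 10 included Pcolce2, Cntn3, Dusp5, Cdkn1a and Ier3, out of 13642 searched. Likeness was the straight-line distance on the log2(FPKM + 1) scale over the 2 differences, which share the control values, and ran between 0.124 and 0.311 for these 5. Dusp5, a phosphatase of ERK, passed in both comparisons with control, at 6.80 FPKM (3.54 to 10.1) in HFOB and 6.95 (3.66 to 10.2) in HFLN, against 18.7 (10.3 to 26.99) in control. Cdkn1a, an inhibitor of cyclin-dependent kinases, and Ier3, an early stress gene, passed in HFOB. Cdkn1a had 16.3 FPKM in HFOB and 22.3 in HFLN, against 49.9 in control, and Ier3 23.0 in HFOB and 27.1 in HFLN, against 60.9 in control. Pcolce2, an enhancer of procollagen processing, had 0.747 in HFOB and 0.671 in HFLN, against 3.71 in control. Cntn3, a neuronal adhesion molecule, had 0.168 in HFOB and 0.224 in HFLN, against 1.98 in control, where its interval ran between 0 and 9.92. Pcolce2 and Cntn3 did not pass.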

How the data were processed

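Ovarian RNA of 9 mice was sequenced from libraries made with a strand-specific messenger RNA kit, per the labels' protocols. Cuffdiff 2.2.1.3 and Cufflinks 2.2.1.0 stand, beside TopHat2 2.1.0, Trimmomatic 0.32.3 and the build mm10, in the submitters' processing notes. Per the file headers, the authors deposited 1 FPKM per gene and group, with bounds in FPKM and a status. No source used here gives the strand setting, the scaling between libraries or the read depth.

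Of 36886 RefSeq identifiers 99.2% were matched to symbols in RefSeq GRCm38.p6, and where a symbol had several rows the one of highest mean FPKM was used. Rows of at least 1 FPKM in 1 or more groups with the status OK in both groups compared were scored on log2(FPKM + 1), with pandas 2.3.3. How often the rule (fold of at least 2, bounds apart) errs at the interval widths and FPKM of these groups was not tested. A linear model had been planned for values per animal. The genes, lists and rules were chosen with earlier results of these data known. Named were the 10 genes, up to 2 relatives per list with the largest log2 difference from control, and the 6 genes of nearest pattern, of which 1 is not reported here. Npr2, Nppc, Rraga, Cpe, Ptprn2, Star, Cfd, the paralogues and the genes listed at 0 were named after their values were seen. Alternatives changed the pseudocount, filter, fold, intervals, scaling and rows.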

Additional observations from a re-analysis of the deposited data

How the results depend on the processing

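No paired analysis was possible because the table holds 1 value per group, so leaving out an animal could not be run either. All 10 genes were lower than control in HFOB and HFLN under every pseudocount and scaling tried. They were chosen as lower in 1 or both diet groups, and a pseudocount cannot change the sign, so nothing is read from this. Without the intervals 8 of 10 passed in HFLN, and also 8 with rows of a symbol summed, since the fold alone was then asked. A fold of 3 on the log2(FPKM + 1) scale left 4 of 10 in HFOB. Low genes such as Sema4f, 17.8-fold lower in HFOB as a plain ratio, fell short of it on that scale. Scaling to summed FPKM of protein-coding genes brought the median of all rows to 0.19 in HFLN and 0.07 in HFOB against control. In HFOB against HFLN it came to -0.12. This shift came from the scales themselves, which were 1.01 in HFOB, 0.923 in HFLN and 1.07 in control. Why the summed FPKM differed between groups was not tested. This scaling left 5 of 10 in HFOB, and brought the median log2 difference of the genes to -1.22 in HFLN. Pseudocounts of 0.1 and 0.01 FPKM gave medians of -2.53 and -2.72 in HFOB and -2.00 and -2.13 in HFLN against control, and -0.46 and -0.66 in HFOB against HFLN. With at least 5 FPKM, which kept 7 of the 10, the medians were -1.87 in HFOB and -1.52 in HFLN. Without the intervals 216 rows passed in HFOB against control, 249 in HFLN against control and 208 in HFOB against HFLN, beside 62, 48 and 33. A fold of 3 on the log2(FPKM + 1) scale left 33 rows in HFOB against control, and protein-coding rows alone numbered 24, 13 and 6. Counts of 4 and 9 genes stayed within 1.5 times under the other settings, and no gene passed in HFOB against HFLN under any.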
